A study of Mus musculus with 22 samples.

Results

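The genes described are 42 transcripts of T cells and natural killer (NK) cells, looked for in RNA of immature B cells sorted from mouse spleen as positive for B220 and CD93. They were taken by gene symbol from a fixed list, at any level, and all 42 were listed in each of the 3 tables of normalized counts, which hold 29294 gene identifiers between them. The list serves as a measure of other lymphocytes in a B cell sort, so each library's level was set against Cd79a, which encodes a signalling chain of the B cell receptor.

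The study asked how splenic immature B cells differ with and without γδ T cells. In experiment 1, 3 libraries came from depleted mice (Tcrd-GDL strain, diphtheria toxin at 15 ng per g body weight in 2 injections 48 h apart, cells taken on day 8) and 3 from untreated Tcrd-GDL mice. In experiment 2 there were 2 depleted Tcrd-GDL libraries, 3 libraries of Tcrd-H2BeGFP mice given the same toxin (the toxin control) and 5 libraries of untreated Tcrd-GDL mice. The culture used immature B cells from Tcrd-H2BeGFP mice without toxin, with γδ T cells added (3 co-cultured libraries) or alone (3 libraries). As background, Tcrd-GDL mice express a diphtheria toxin receptor from the locus of the T cell receptor δ chain. The labels do not say whether Tcrd-H2BeGFP mice carry a receptor, give no ages and do not say whether B cells were sorted again after culture, and the toxin control differs from untreated mice in strain as well as in toxin. They also do not say that libraries came from separate animals, so p-values measure the spread between libraries, which may be technical.

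T cells read antigen through a receptor of α and β or γ and δ chains, which signals through the CD3 proteins and CD247. The kinases Lck and Zap70 phosphorylate these chains and the scaffold Lat, around which adaptors such as Grap2 and Skap1 gather. NK cells lack this receptor and are known by surface receptors such as Ncr1 and Klrk1 and by the cytotoxic proteins of their granules, which they share with killer T cells. In the spleen both cell types lie close to B cells, and mouse B cells themselves carry Cd2.

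The members fell into 8 CD3 and receptor chains, 10 genes of signalling close to the receptor, 11 surface coreceptors and costimulatory molecules, 4 transcription factors and 9 NK and cytotoxic genes. The CD3 genes lie together on chromosome 9 in GRCm38, where Cd3g (44969572 to 44980431, minus strand) and Cd3d (44981786 to 44987339, plus strand) are transcribed away from each other with their 5′ ends 1355 bases apart. Cd3e (44998740 to 45009627, minus strand) is 27841 bases from Cd3d by the same measure. Lck spans chromosome 4 from 129548344 to 129573641 on the minus strand and has 2 listed start sites. Upstream sequences of Cd3d, Cd3e and both Lck starts are shown because Lck was abundant and steady across spleen libraries while the CD3 genes were scarce and varied. In culture the order was the other way, with coefficients of variation of 30.6% for Lck and 11.6% to 29.9% for the 3 CD3 genes. They are the 250 bases before each start from RefSeq (GRCm38.p6), 5′ to 3′ on the gene's strand, with capitals marking the core letters TGTGGT (RUNX), CTTTGA (TCF and LEF) and GGAAGT (ETS) on either strand.

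Lck upstream start, chr4:129573642-129573891, minus strand: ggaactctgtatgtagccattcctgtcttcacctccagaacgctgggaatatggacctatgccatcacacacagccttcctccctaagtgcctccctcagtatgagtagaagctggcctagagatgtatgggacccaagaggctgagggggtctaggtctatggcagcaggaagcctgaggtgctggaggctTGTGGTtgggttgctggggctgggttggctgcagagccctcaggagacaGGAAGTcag
Lck downstream start, chr4:129558373-129558622, minus strand: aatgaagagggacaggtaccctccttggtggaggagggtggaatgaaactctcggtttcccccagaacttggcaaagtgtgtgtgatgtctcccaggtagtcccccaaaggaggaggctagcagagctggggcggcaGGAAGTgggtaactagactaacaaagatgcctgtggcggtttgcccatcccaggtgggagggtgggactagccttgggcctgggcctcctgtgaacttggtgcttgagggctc
Cd3d, chr9:44981536-44981785, plus strand: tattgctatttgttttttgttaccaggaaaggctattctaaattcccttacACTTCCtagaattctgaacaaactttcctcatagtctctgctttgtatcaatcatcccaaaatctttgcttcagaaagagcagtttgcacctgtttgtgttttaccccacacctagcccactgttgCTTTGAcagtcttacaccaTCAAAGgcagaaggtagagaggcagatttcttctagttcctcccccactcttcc
Cd3e, chr9:45009612-45009861, minus strand: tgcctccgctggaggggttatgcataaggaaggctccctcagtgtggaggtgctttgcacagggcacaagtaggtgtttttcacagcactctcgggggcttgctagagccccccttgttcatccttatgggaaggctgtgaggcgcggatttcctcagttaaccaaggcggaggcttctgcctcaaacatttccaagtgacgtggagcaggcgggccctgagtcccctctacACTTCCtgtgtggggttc

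The RUNX letters stood only upstream of the upstream Lck start among these sequences, the TCF and LEF letters only in Cd3d, and the ETS letters in all 4. The letters are common, since RUNX, TCF and LEF, and ETS letters were in 14.0%, 13.8% and 19.7% of all 32851 listed promoters. The 25 members with a listed promoter had 35 promoters, some of them of the same gene, and 10 (28.6%), 5 (14.3%) and 13 (37.1%) of the 35 held these letters. Counts per gene cannot tell the 2 Lck starts apart.

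Experiment 1 had between 9794413 and 20343954 reads per library, experiment 2 between 22022330 and 36840455, and culture between 17505909 and 28729574. Cd79a lay between 7179 and 10704 normalized counts in experiment 1, between 21349 and 26435 in experiment 2 and between 9566 and 13443 in culture. Depleted and untreated libraries differed in Cd79a by 0.01 (log2) in experiment 1 and by -0.08 in experiment 2, and co-cultured and alone libraries by -0.25, and none of these passed the test. The B cell genes Ms4a1, Pax5 and Cd79b had reads in every library. Each table was scaled on its own by the authors, so levels were compared within a table only. In experiment 2, untreated replicate 8 stood apart from untreated replicates 4 to 7, lying above all 4 for 38 of the 42 members, with a median ratio to their median of 3.14. The same count over all genes was not made. Counts of members called in the toxin control, and some medians and summed ratios, are given with and without untreated 8. Fold changes and p-values of single genes include untreated 8 unless stated.

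T cell receptor transcripts were present in every library and were small beside Cd79a. In experiment 1 the 8 CD3 and receptor chains summed to 2.56, 4.33 and 8.86 per 1000 Cd79a in depleted libraries and to 5.61, 7.25 and 8.29 in untreated libraries. The ranges overlapped, and the depleted group held both the lowest and the highest library. In experiment 2 the sums were 10.2 and 17.4 in depleted libraries, 48.1, 20.1 and 36.1 in toxin control libraries, and 11.2, 7.80, 9.11, 15.8 and 36.6 in untreated libraries 4 to 8. All toxin control libraries lay above both depleted libraries and above untreated 4 to 7, while untreated 8 lay inside their range. In culture the sums were 24.7, 17.0 and 21.6 in co-cultured libraries, against 16.9, 12.8 and 19.1 in libraries of B cells alone, and the ranges overlapped. In bulk samples, fewer cells of a type and less RNA per cell cannot be told apart, so these ratios are not shares of T cells.

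In experiment 2 the NK and cytotoxic genes summed to 7.32 and 12.8 per 1000 Cd79a in depleted libraries, 22.4, 17.2 and 31.6 in toxin control libraries and 7.08, 6.42, 8.12, 15.3 and 30.3 in untreated libraries 4 to 8. All toxin control libraries again lay above both depleted libraries and untreated 4 to 7, with untreated 8 inside their range. The NK sum was 0.466 to 0.874 times the receptor chain sum in toxin control libraries, 0.715 and 0.735 times in depleted libraries and 0.631 to 0.967 times in untreated libraries. In experiment 1 the ratio ran from 0.583 to 3.08 in depleted libraries and from 0.693 to 1.23 in untreated libraries. The 3.08 came from depleted replicate 1, in which 24 of the 41 members with reads were at their lowest, a count not made over all genes. This library had the fewest reads (9794413) and the lowest Cd79a (7179) of experiment 1. The transcript Gm23935 took 28.7% of its reads, against 16.1% to 20.4% in the other libraries. The part of depth and RNA composition in its values was not tested.

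**Figure D1:**
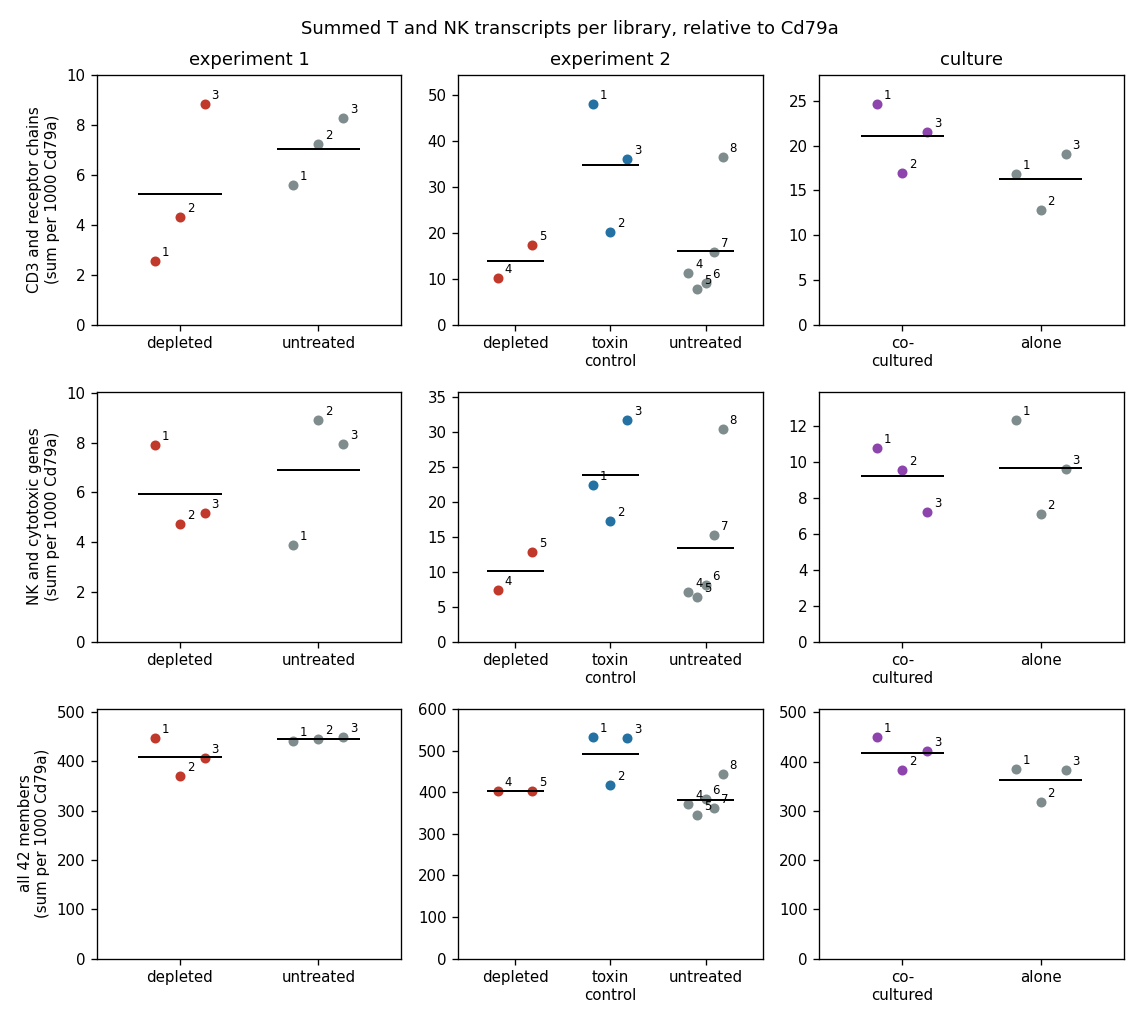
Sums of normalized counts per 1000 Cd79a (vertical axes, from 0) for the CD3 and receptor chains, the NK and cytotoxic genes and all 42 members, 1 point per library with its replicate number and a line at the group mean. In experiment 2 the 3 toxin control libraries and untreated replicate 8 carry receptor chain sums of 20.1 to 48.1, and the other untreated and the depleted libraries 7.80 to 17.4.

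Summed over all 42 members, toxin control libraries of experiment 2 had 417 to 532 per 1000 Cd79a. Depleted libraries had 403 and 404, and untreated libraries 346 to 444. The groups differed less in proportion than for the receptor chains, and 5 genes supplied most of the sum. Cd2 (an adhesion receptor), Grap2 (the adaptor Gads), Lck (the kinase at the start of T cell receptor signalling), Lef1 (a transcription factor of the Wnt pathway) and Sh2d2a (an adaptor that binds Lck) made up 90.4% to 94.5% of the summed counts in experiment 1. In experiment 2 their share was 67.0% to 90.2%, and in culture 70.2% to 78.9%. They were steady: their coefficients of variation across the 10 libraries of experiment 2 were 7.53% to 16.6%, against a median of 68.4% for the other 37. In culture they were 10.8% to 30.6%, against a median of 36.2%. Cd2 had 5177 and 5236 normalized counts in depleted libraries, 5338, 5368 and 5330 in toxin control libraries and 5941, 6068, 5270, 4981 and 4712 in untreated libraries 4 to 8. No group stood apart, and untreated 8, high for most members, was lowest for Cd2. Per kilobase of exon and per 1000 Cd79a, Cd2 led in experiment 2 with 191, followed by Grap2 with 10.4, Lck with 8.65 and Lef1 with 5.55. Next came Gzma with 4.98 and Trbc2 with 4.88. Cd2 was first per length in experiment 1 with 190.4 and in culture with 106.

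**Figure D2:**
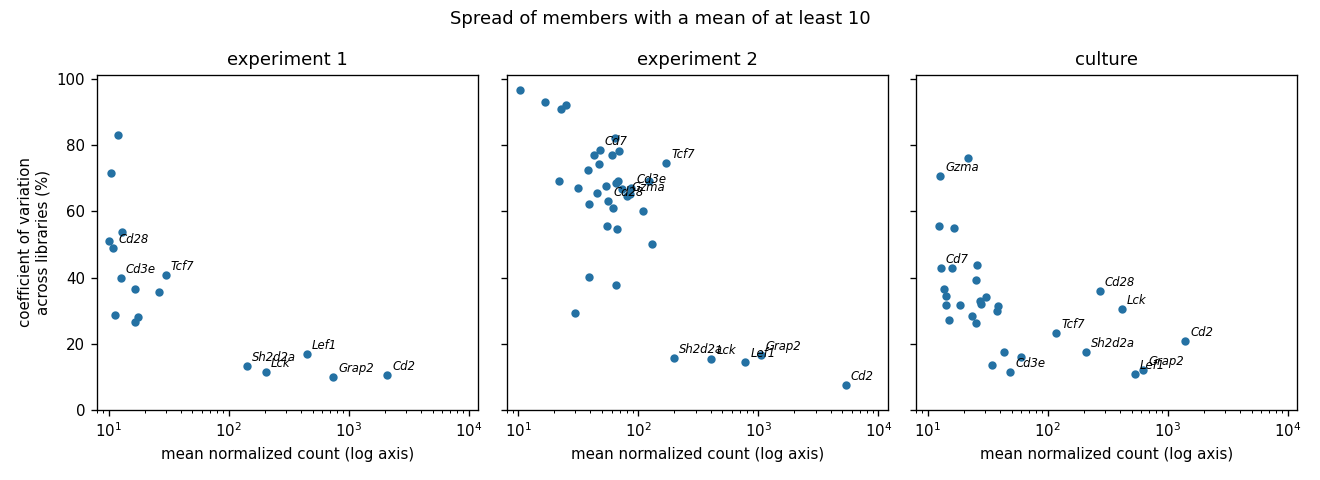
Coefficient of variation across all libraries of a table (vertical axis, %) against mean normalized count (horizontal log axis), 1 point for each member with a mean of at least 10. Cd2, Grap2, Lck, Lef1 and Sh2d2a sit at the lower right in both spleen experiments, at 7.53% to 16.6% in experiment 2.

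T cell transcripts were higher in the toxin control than in untreated mice. Of 38 members with a mean of at least 10 in experiment 2, 14 rose and 0 fell (limma, adjusted p under 0.05 by the Benjamini-Hochberg method across all genes tested), where 7.32% of all 13364 tested genes were called higher and 8.34% lower. The median log2 fold change was 1.25 over these members (1.05 with edgeR and 1.07 with DESeq2) and 0.00 over all tested genes, and 37 of the 38 were above 0. By role, 2 of 7 tested receptor chains rose, 3 of 10 signalling genes, 4 of 9 surface molecules, 3 of 4 transcription factors and 2 of 8 NK and cytotoxic genes. EdgeR called 8 members and DESeq2 11, with 0 and 1 receptor chains and 0 and 0 NK and cytotoxic genes among them. Cd3e (adjusted p = 0.104 by edgeR and 0.202 by DESeq2), Cd3g, Il2rb and Ncr1 were called by neither. Scaled to Cd79a, 18 members rose, where 6.35% of all genes were called higher and 2.67% lower. The 3 comparisons within experiment 2 share libraries and are not independent of each other.

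The share of reads from mt-Rnr2, a mitochondrial ribosomal RNA, was lower in the same toxin control libraries. It was 24.2% and 19.2% in depleted libraries, 17.9%, 14.5% and 15.7% in toxin control libraries and 20.6% to 25.2% in untreated libraries, lowest of these in untreated 8. The part of RNA composition in the T cell values was not tested.

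Lat, the membrane scaffold of T cell receptor signalling, had 153, 93.2 and 124 normalized counts in toxin control libraries, against 34.0, 23.9, 21.2, 42.7 and 73.2 in untreated libraries. The groups did not overlap, and the log2 fold change was 1.75 ± 0.34 (SE, limma adjusted p = 0.00625). Skap1, an adaptor that couples the receptor to integrins, had 169, 107 and 127 in toxin control libraries and 31.5, 37.5, 27.4, 33.4 and 99.9 in untreated libraries. Untreated 8 was the only untreated library near the toxin control, and the fold change was 1.68 ± 0.35 (adjusted p = 0.0079).

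Tcf7, the transcription factor TCF-1 of T and NK cells, had 370, 274 and 340 normalized counts in toxin control libraries and 87.9, 71.8, 41.2, 92.2 and 277 in untreated libraries. Untreated 8 lay within the toxin control range, and the log2 fold change was 1.81 ± 0.39 (limma adjusted p = 0.00913). Bcl11b, a factor that commits cells to the T lineage, had 67.6, 62.5 and 87.4 in toxin control libraries and 20.7, 12.5, 18.7, 10.7 and 54.2 in untreated libraries. Its groups did not overlap, with a fold change of 1.82 ± 0.43 (adjusted p = 0.0121). Lef1 was called with a small change, having 963, 884 and 910 in toxin control libraries and 761, 686, 703, 632 and 802 in untreated libraries. These groups did not overlap, and the fold change was 0.36 ± 0.10 (adjusted p = 0.0281).

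Among surface molecules, Thy1, a glycolipid-anchored marker of mouse T cells, had 173, 98.3 and 121 normalized counts in toxin control libraries and 28.2, 18.7, 13.7, 32.1 and 113 in untreated libraries. Cd6, a T cell scavenger receptor family member, had 67.6, 27.7 and 44.4 in toxin control libraries and 9.12, 5.21, 2.49, 16.03 and 24.97 in untreated libraries. Il2rb, a chain of the receptors for IL-2 and IL-15 and grouped here with the NK genes, had 88.6, 71.7 and 98.0 in toxin control libraries and 9.12, 9.37, 12.5, 32.1 and 82.7 in untreated libraries. Cd6 did not overlap between groups, whereas untreated 8 reached the toxin control range for Thy1 and Il2rb. The log2 fold changes were 2.01 for Thy1, 2.17 for Cd6 and 2.05 for Il2rb (limma adjusted p = 0.0128, 0.0279 and 0.0232).

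The other 6 that rose were Cd8a, Cd4, Cd3g, Ubash3a, Ncr1 and Cd3e, with log2 fold changes of 1.38 to 2.21. Cd4 and Cd8a, the coreceptors of helper and killer T cells, both rose, by 1.38 and 1.41. Cd3e had 185, 112 and 135 normalized counts in toxin control libraries and 57.2, 29.2, 33.7, 41.4 and 167 in untreated libraries. Untreated libraries 4 to 7 were below all toxin control libraries and untreated 8 was within them. Ncr1, the NK receptor NKp46, had 29.1, 41.0 and 69.8 in toxin control libraries and 5.81, 2.08, 7.48, 8.01 and 52.5 in untreated libraries, with the same pattern. All toxin control libraries were above all untreated libraries for 9 of the 38 tested members, where 11.6% of all tested genes showed this.

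Other receptor chains were laid out across libraries as follows. Cd3g, which passed, had 43.9 and 107 normalized counts in depleted libraries, 266, 137 and 231 in toxin control libraries and 79.6, 31.2, 39.9, 84.2 and 207 in untreated libraries 4 to 8. Trbc2, a constant region of the β chain, had 18.6 and 35.0 in depleted libraries, 128, 53.3 and 93.0 in toxin control libraries and 29.9, 32.3, 13.7, 56.1 and 77.5 in untreated libraries. Its log2 fold change between toxin control and untreated mice was 1.24 ± 0.45 (limma adjusted p = 0.0713). Cd3d, the δ chain of CD3, had 50.4 and 58.3 in depleted libraries, 198, 56.3 and 110 in toxin control libraries and 41.5, 49.98, 52.4, 69.5 and 172 in untreated libraries. For Trbc2 and Cd3d untreated 7 was above toxin control 2, and for all 3 genes untreated 8 lay between the lowest and the highest toxin control library. The 4 members under the mean of 10 in experiment 2 were Icos and Ctla4, a costimulatory and an inhibitory receptor of activated T cells, the granule protease Gzmb, and Tcrg-C1, and none of them exceeded 24.7 in any library.

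The number of members that passed depended on single libraries, and it rose only when untreated 8 was left out. Without untreated 8, 29 members rose in the toxin control, the 14 named above among them, where 10.6% of all tested genes were called higher. The receptor chains Trac, Trbc1, Trbc2, Cd3d and Cd247 were among the 29. With any other single library of the comparison left out, 2 to 7 were called, where 0.569% to 6.37% of all tested genes were, and Lat and Skap1 were called each time. Untreated 8 was within or above the toxin control range for 31 of the 42 members and above all toxin control libraries for 8. These counts were not made over all genes.

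**Figure D3:**
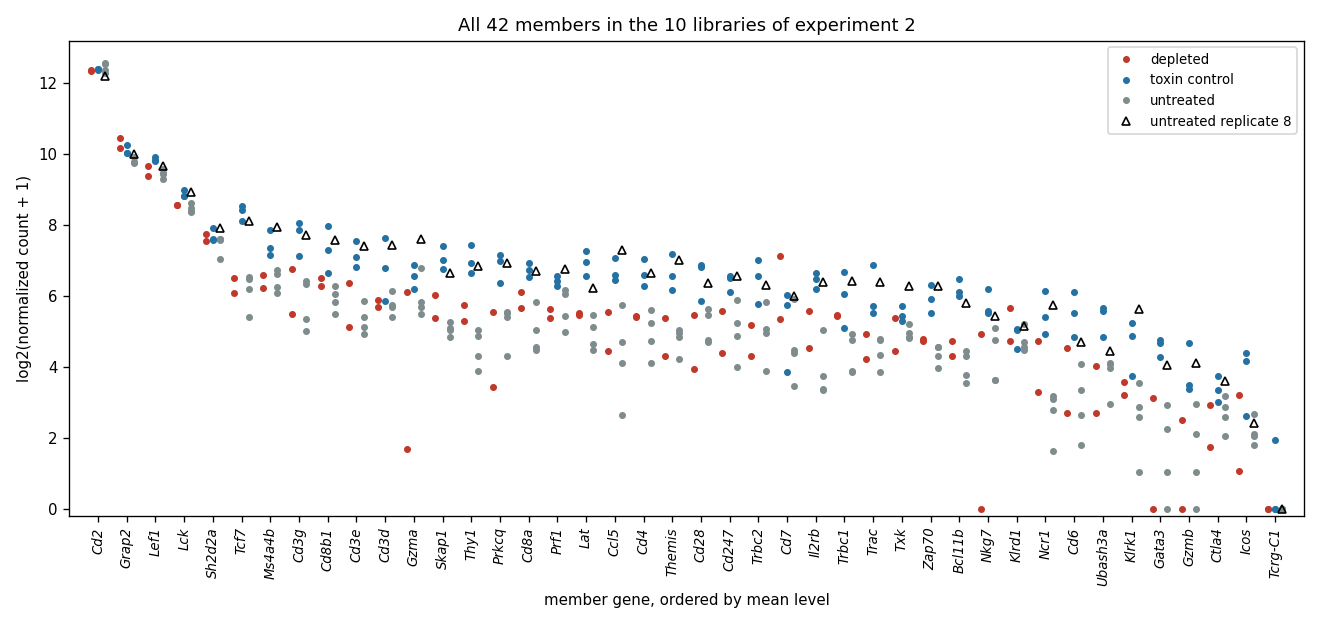
Level of each member in experiment 2 as log2 of the normalized count plus 1 (vertical axis), members ordered by mean level (horizontal axis), 1 point per library, with depleted left, toxin control centre and untreated right, and untreated replicate 8 as an open triangle. From Tcf7 rightwards most toxin control points lie above most untreated points other than the triangle, and for Cd2, Grap2, Lef1, Lck and Sh2d2a the 3 groups lie close together.

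T cell transcripts were lower in depleted than in toxin control libraries: 6 of 38 tested members fell and 0 rose (limma, adjusted p under 0.05), where 4.49% of all tested genes were called lower and 4.58% higher. Of the 6, edgeR called Lat, Tcf7 and Ubash3a, and DESeq2 called these and Cd28. DESeq2 called 7 members in all, with Bcl11b, Skap1 and the receptor chain Trbc2 as well, where 6.08% of all genes were called lower. Neither edgeR nor DESeq2 called Prkcq or Nkg7, and Nkg7 was the only NK and cytotoxic gene called by limma. The median log2 fold change was -1.39 over the members and 0.00 over all tested genes. Both depleted libraries lay below all 3 toxin control libraries for 31 of the 38, where 20.9% of all tested genes did. Tcf7 had 66.9 and 89.8 normalized counts in depleted libraries, against 370, 274 and 340 in the toxin control, a fold change of -2.06 ± 0.49 (limma adjusted p = 0.0209). Prkcq, the protein kinase C of the T cell synapse, had 9.87 and 45.5 in depleted libraries and 141, 80.9 and 125 in the toxin control (-2.34 ± 0.61, adjusted p = 0.0299). Both genes were well separated, and depleted 4 was the lower depleted library.

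Ubash3a, a suppressor of T cell receptor signalling, had 5.48 and 15.2 normalized counts in depleted libraries and 49.0, 27.7 and 46.5 in the toxin control, with a log2 fold change of -1.996 ± 0.554 (limma adjusted p = 0.0366). Cd28, the receptor for the second signal of T cell activation, had 14.3 and 43.2 in depleted libraries and 117, 56.3 and 111 in the toxin control (-1.81 ± 0.52, adjusted p = 0.0409). Nkg7, a granule membrane protein of cytotoxic cells, had 0 and 29.2 in depleted libraries and 46.6, 45.1 and 72.6 in the toxin control (-3.31 ± 0.96, adjusted p = 0.0429). Lat had 45.0 and 43.2 in depleted libraries and 153, 93.2 and 124 in the toxin control (-1.44 ± 0.43, adjusted p = 0.0455). None of these 4 overlapped between groups, and all but Lat were lower in depleted 4 than in depleted 5. Without depleted 4, toxin control 2 or toxin control 3, 0 members were called, where 0.12%, 0.823% and 1.78% of all tested genes were called lower. Without toxin control 1 only Tcf7 was called (3.55% of all), and without depleted 5 there were 14 (10.6% of all).

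**Figure D4:**
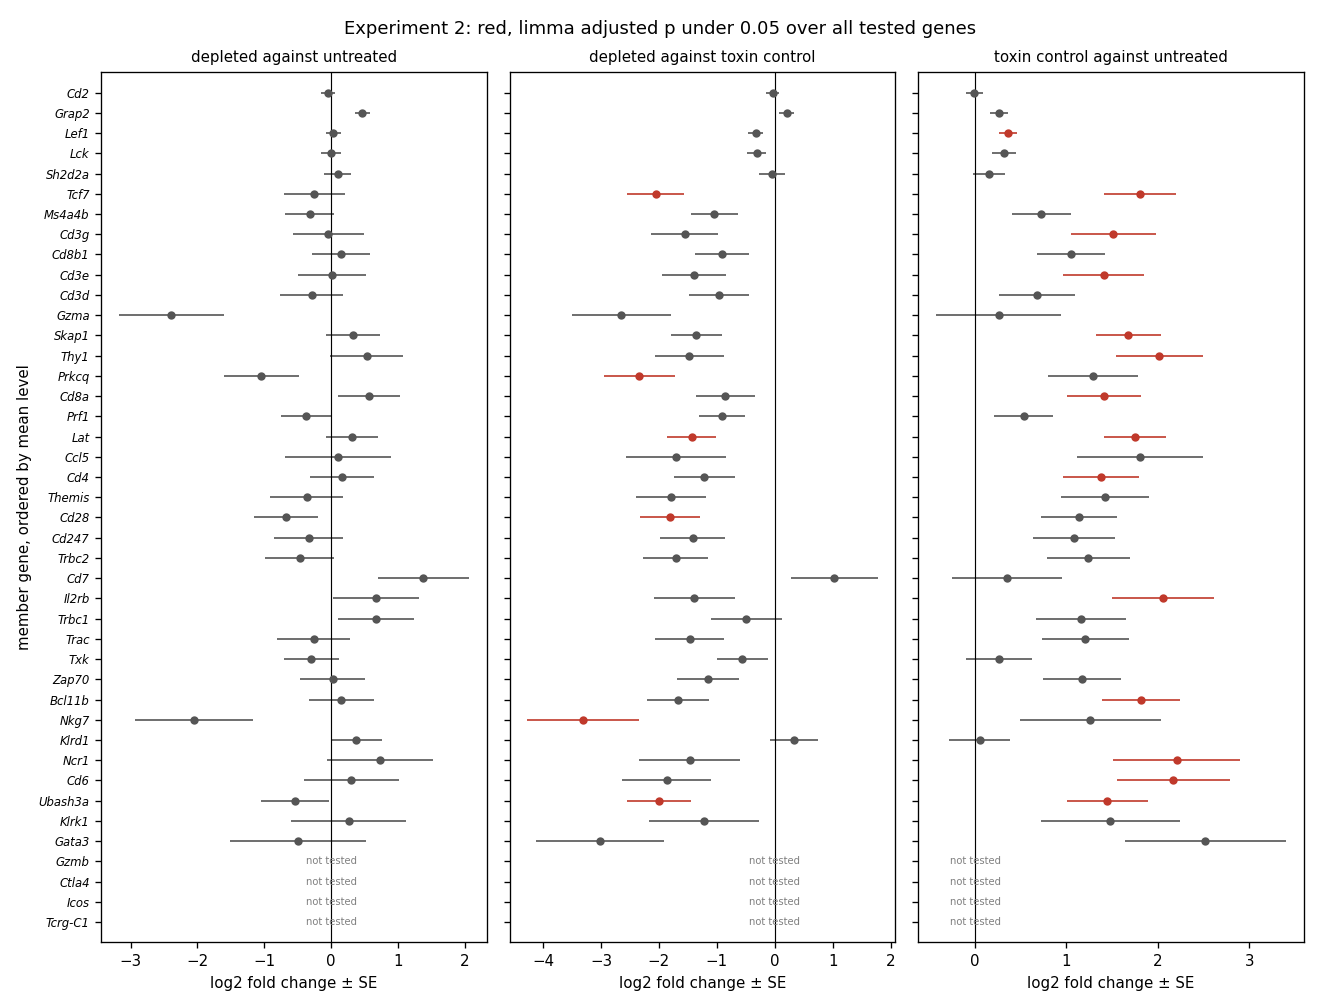
Log2 fold changes with standard errors (horizontal axes) of every tested member in the 3 comparisons of experiment 2, ordered by mean level, with red for a limma adjusted p under 0.05 over all tested genes. In the toxin control against untreated, 14 are red and to the right of 0, and in depleted against toxin control 6 are red and to the left.

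Between depleted and untreated mice of experiment 2, 0 of 38 members passed limma in either direction, where 0.127% of all tested genes were called higher and 0.172% lower. Unadjusted, 3 had p under 0.05, edgeR called 0 and DESeq2 called Grap2. Scaled to Cd79a, 0 members passed, where 0.217% of all genes were called higher and 0.135% lower. The members' median log2 fold change was 0.02 (range -2.39 to 1.38), and it was 0.35 without untreated 8, -0.23 with edgeR and -0.20 with DESeq2. Grap2 had 1405 and 1141 normalized counts in depleted libraries and 964, 874, 881, 855 and 1013 in untreated libraries. It was the only member for which both depleted libraries lay above all untreated ones, and the share of all genes with this order was not counted. Its fold change was 0.47 ± 0.11, with an adjusted p of 0.106 by limma, 0.078 by edgeR and 0.0163 by DESeq2. Gzma, the granule protease granzyme A, had 2.19 and 67.6 in depleted libraries and 50.6, 43.7, 56.1, 108 and 194 in untreated libraries, so that its fold change of -2.39 ± 0.79 (limma adjusted p = 0.27) came from depleted 4.

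The 2 depleted libraries differed from each other, with 29 members higher in replicate 5, a count not made over all genes. Cd7, a surface protein of T and NK cells, went the other way with 137 normalized counts in depleted 4 and 39.7 in depleted 5, against 52.5, 13.3 and 63.4 in the toxin control and 9.98 to 62.9 in untreated libraries. Siglech, a marker of plasmacytoid dendritic cells, had 274 in depleted 4 and 115 in depleted 5, against 44.4 to 62.9 in the toxin control and 17.5 to 157 in untreated libraries. The 7 listed plasmacytoid and dendritic genes, Siglech among them, went the other way, with sums of 406 per 1000 Cd79a in depleted 4 and 442 in depleted 5. Their sums were 378 to 479 in the toxin control and 354 to 417 in untreated libraries. The part of plasmacytoid dendritic cells in the Cd7 value was not tested. Cd3e had 34.0 and 81.6 in depleted libraries, both inside the untreated range of 29.2 to 167.

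In experiment 1, with fewer reads, 17 members had a mean of at least 10 and 0 passed limma in either direction, as for all 11701 tested genes (0% higher and 0% lower). Without depleted 1, 4.09% of all tested genes were called higher and 5.28% lower, with 0 members called. Unadjusted, 1 member (Lck) had p under 0.05, and edgeR and DESeq2 called 0. The median log2 fold change of the 17 was -0.32, against -0.01 over all tested genes, and 14 of them were below 0. Without depleted 1 the members' median was -0.00674. Lck had 167, 189 and 195 normalized counts in depleted libraries and 228, 218 and 221 in untreated libraries. The groups did not overlap, with a fold change of -0.28 ± 0.12 (limma adjusted p = 0.565). In experiment 2 Lck had 379 and 373 in depleted libraries and 331 to 486 in untreated libraries, and these overlapped. Cd2 had 1724, 1984 and 2107 in depleted libraries and 2327, 2150 and 2283 in untreated libraries of experiment 1, without overlap (-0.22 ± 0.10, limma adjusted p = 0.572). The share of all genes without overlap in experiment 1 was not counted.

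Cd3e had 6.12, 7.37 and 19.4 normalized counts in depleted libraries and 13.1, 14.5 and 15.3 in untreated libraries of experiment 1. Depleted 3 was above all untreated libraries and the other two below. In this experiment 25 of the 42 members stayed under the mean of 10. Tcf7, at 9.18, 30.5 and 41.3 in depleted libraries and 35.8, 23.0 and 39.8 in untreated libraries, overlapped as well.

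In culture, 1 of 31 tested members rose in co-cultured B cells and 0 fell, where 1.1% of all 12386 tested genes were called higher and 1.06% lower. The gene was Lck, with 602, 517 and 419 normalized counts in co-cultured libraries and 337, 311 and 284 in libraries of B cells alone. The groups did not overlap, with means of 513 ± 91.3 in co-cultured and 311 ± 26.3 in alone libraries (SD, n = 3 each) and a log2 fold change of 0.71 ± 0.15 (limma adjusted p = 0.0297). EdgeR and DESeq2 called it too (adjusted p = 0.0233 and 0.00129). The call was lost in 5 of the 6 fits that left out 1 library, with the fold change between 0.59 and 0.85.

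The receptor chains did not pass the test in culture. Cd3e had 57.4, 44.4 and 50.9 normalized counts in co-cultured libraries and 51.4, 41.9 and 46.1 in libraries of B cells alone, with a log2 fold change of 0.13. Of 7 receptor chains tested, 0 passed (limma, lowest adjusted p = 0.491, 0 with an unadjusted p under 0.05, and 0 by edgeR and DESeq2), and their median was 0.13. The median over all 31 members was -0.09, with a range of -0.61 to 1.29. The largest change was that of Bcl11b, which ran from 6.70 to 52.6 normalized counts across the culture libraries. Among the transcription factors 0 passed (limma, lowest adjusted p = 0.238).

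Cd2, Cd28 and Sh2d2a came nearest to the threshold, and their groups did not overlap. How many of all genes were without overlap in culture was not counted. Cd28 had 446, 303 and 265 normalized counts in co-cultured libraries and 229, 188 and 189 in alone libraries, a log2 fold change of 0.71 ± 0.19 (limma adjusted p = 0.0789). Sh2d2a had 234, 221 and 259 in co-cultured libraries and 180, 171 and 178 in alone libraries (0.43 ± 0.14, adjusted p = 0.155). Cd2 had 1099, 1341 and 998 in co-cultured libraries and 1665, 1646 and 1597 in alone libraries (-0.52 ± 0.13, adjusted p = 0.0583). Cd28 and Sh2d2a were higher in every co-cultured library and Cd2 lower in each. DESeq2 called Cd28 and Cd2 (adjusted p = 0.0128 and 0.0245) and edgeR neither. Cd79a itself averaged 9978 ± 680 in co-cultured and 11902 ± 1340 in alone libraries (SD, n = 3 each), and scaling to it moved the median of all genes by 0.25 on the log2 scale. On that scale 2.85% of all genes were called higher and 0.217% lower. Relative to Cd79a, Lck (0.96), Cd28 (0.96) and Sh2d2a (0.68) were called higher and Cd2 (-0.27) was not called.

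**Figure D5:**
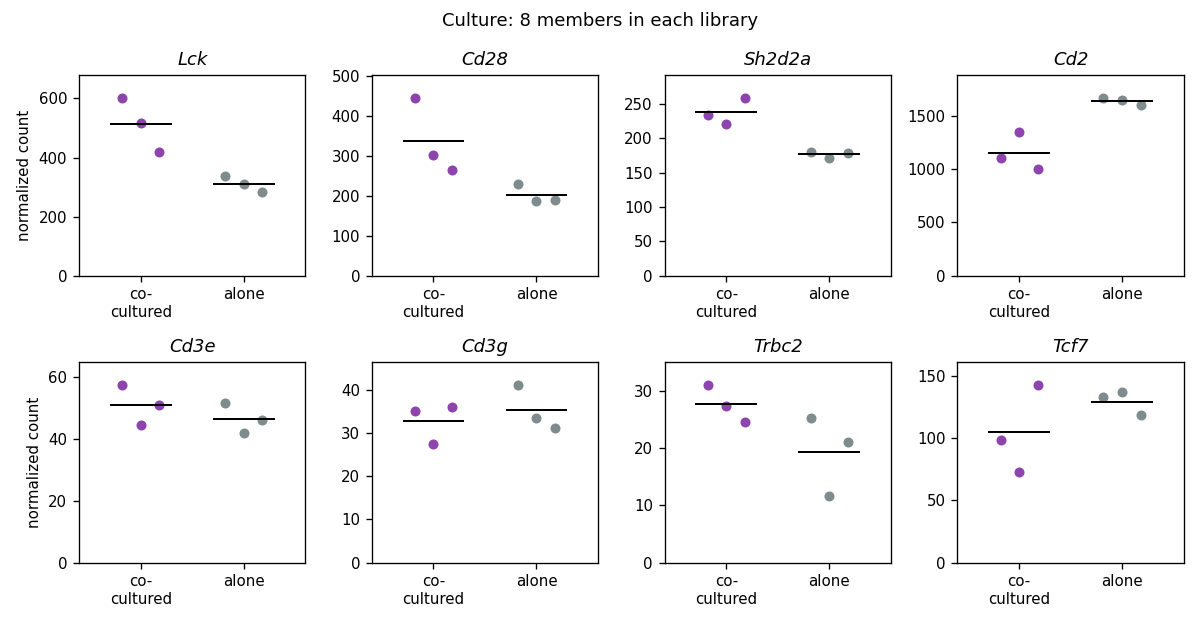
Normalized counts (vertical axes, from 0) of 8 members in culture, 1 point per library with a line at the group mean, co-cultured left and alone right. Lck, Cd28 and Sh2d2a are above and Cd2 is below in every co-cultured library, and Cd3e, Cd3g, Trbc2 and Tcf7 overlap between groups.

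Transcripts of the γ chain constant regions Tcrg-C1 and Tcrg-C2 were at the limit of detection. Values of the δ chain and of other γ chain segments are not described here. Tcrg-C1, a constant region of the γ chain, had 0 reads in all libraries of experiment 1 and culture, co-cultured ones included, which allows up to 1.79 to 4.59 normalized counts in a library of experiment 1 and 2.22 to 3.74 in culture (3 reads, counting error only). In experiment 2 it was at 0 in both depleted libraries, at 0, 0 and 2.82 in the toxin control and at 0 in all untreated libraries. Tcrg-C2, another constant region, had at most 4.30 normalized counts in any library, in untreated 8 of experiment 2, and in culture 0.877 in 1 co-cultured library and 0 elsewhere. The αβ chains were detected in culture, Trbc2 with 31.1, 27.4 and 24.6 in co-cultured and 25.2, 11.7 and 21.2 in alone libraries. A loss of Tcrg-C1 or Tcrg-C2 RNA from these sorts after depletion could therefore not be detected at this depth.

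Genes of other cells also differed between libraries of experiment 2. The 7 listed myeloid genes, all detected in every library, summed to 32.6 and 36.6 per 1000 Cd79a in depleted libraries, 42.2 to 76.0 in the toxin control and 26.8 to 63.1 in untreated libraries, the last highest in untreated 8. Lyz2, the lysozyme of macrophages and neutrophils, had 143 and 241 normalized counts in depleted libraries, 584, 539 and 864 in the toxin control and 230 to 941 in untreated libraries. It was called lower in depleted than in toxin control libraries (log2 fold change -1.80 ± 0.44, limma adjusted p = 0.0216), as was Itgam, an integrin of myeloid and NK cells (-1.24 ± 0.27, adjusted p = 0.0149). Of 6 myeloid genes tested there, 4 were below 0 and 2 above, with a median of -0.30, and Cd68 (0.10) and Ly6c2 (0.45) were the 2 above. EdgeR called 2 of the myeloid genes lower and DESeq2 1. The 6 listed neutrophil genes summed to 0.148 and 0.203 per 1000 Cd79a in depleted libraries, 0.620, 1.129 and 6.90 in the toxin control and 0.464 to 6.97 in untreated libraries, highest in untreated 8. The 6 erythroid genes, all detected in every library, summed to 197 and 14.2 in depleted libraries, 72.8, 38.5 and 13.2 in the toxin control and 35.2 to 109 in untreated libraries, lowest in untreated 8. The 5 erythroid genes tested were all below 0 in the toxin control against untreated mice (median -1.24) and 0 passed limma (lowest adjusted p = 0.117, 2 with an unadjusted p under 0.05, and 0 by edgeR and DESeq2). In the toxin control against untreated mice Itgam was called higher too (0.85 ± 0.22, limma adjusted p = 0.0186). It was the only myeloid gene called there, with 4 of the 6 tested above 0 and 2 below (median 0.43). Of the B cell genes 1 was called higher, the transcription factor Ebf1 (0.52 ± 0.09, limma adjusted p = 0.00460). The part of these cells in the T and NK values was not tested. Of 30 further T cell genes, 26 were tested, and in the toxin control 5 rose and 2 fell against untreated mice. Of all tested genes, 7.32% were called higher there and 8.34% lower. Tox, a nuclear factor of T cell development, averaged 41.1 ± 10.03 in toxin control (SD, n = 3) and 10.7 ± 10.9 in untreated libraries (SD, n = 5). Ccr7 and Itm2a were the 2 that fell. In depleted against toxin control libraries, 2 of the 26 were called higher and 5 lower, where 4.58% and 4.49% of all tested genes were. Among 22 further NK genes, 9 were tested in experiment 2 and 0 passed limma in any of its comparisons, with 1 to 3 at an unadjusted p under 0.05 in each and 0 called by edgeR or DESeq2.

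Some members share sequence or overlap other genes. Trbc1 and Trbc2 share 40.5% and 44.0% of their 50-base windows, so reads may have been split between them. Tcrg-C1 shares 34.2% of its windows, 22.2% with Tcrg-C3, so its 0 reads are limited by shared sequence as well as by counting. In Cd247, 56.4% of exon length lies across the opposite-strand gene Pou2f1, and whether counting used strand is not given in the sources used here.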

How the data were processed

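The 22 libraries were made from RNeasy Plus Micro extracts with a SMART-Seq stranded kit for total RNA, according to the labels' protocols. The submitters' processing notes list bcl2fastq, STAR 2.5.2b and the mm10 genome. The sources used here do not give the counter, its strand setting, the annotation or the scaling method. The authors deposited 3 tables of normalized counts, a signal scaled library by library. All values (100%) came out as whole reads within a tolerance of 0.01, and their sums are the library sizes. Gene identifiers matched GENCODE M21 for 98.9%, 98.8% and 98.8% of the tables of experiment 1, experiment 2 and culture.

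Each comparison was fitted with limma 3.58.1 (R 4.3.3, eBayes with trend) on log2(value + 1) for all genes with a table mean of at least 10, adjusted by Benjamini-Hochberg over all of them at 0.05. The added 1 pulls fold changes of low genes towards 0. Even so, the members' median in the toxin control against untreated was 1.25 with limma, and smaller with edgeR (1.05) and DESeq2 (1.07). The 3 groups of experiment 2 were fitted together. Groups without overlap were counted over all genes only for the comparisons with the toxin control. Alternatives were edgeR 4.0.16 and DESeq2 1.42.0 on the recovered reads (size factors and dispersions of their own), quantile or Cd79a scaling, other pseudocounts and filters, a replicate block and leaving out libraries. On simulated data limma recovered 59% to 68.5% of genes changed 2-fold. The changed genes were drawn from all tested genes, with noise independent between genes. The rate therefore does not carry over to members near the filter or to libraries that shift as a whole. Members and lists were chosen with earlier results of these data known. Genes with values in every library are a fixed set of 12 (of these the ones that say something in a comparison) and those passing a test, up to 8 with the smallest p. Grap2, Gzma, Cd7, Siglech, Ncr1 and the culture genes near the threshold were named after their values were seen.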

Additional observations from a re-analysis of the deposited data

Results flagged for a closer look

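In the 5 untreated libraries of experiment 2, replicate 8 was far above the other 4 for 16 members, its gap to the next library exceeding Dixon's 95% critical value (0.71 of the group's range). Its normalized counts there were 277 for Tcf7, 246 for Ms4a4b, 191 for Cd8b1, 172 for Cd3d, 167 for Cd3e, 127 for Themis, 119.7 for Prkcq, 113 for Thy1, 99.9 for Skap1, 85.2 for Trbc1, 82.7 for Trac, 76.6 for Zap70, 75.8 for Txk, 54.2 for Bcl11b, 52.5 for Ncr1 and 48.2 for Klrk1. The same library stood out in 3 sums per 1000 Cd79a, with 36.6 for the CD3 and receptor chains, 216 for the members without Cd2 and Lef1, and 144 for the members without Cd2, Grap2, Lck, Lef1 and Sh2d2a. Chance flags about 1 in 20 groups, and 19 of 50 were flagged here, all in 1 library and therefore not independent of each other. No other group had enough libraries for this comparison.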

How the results depend on the processing

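In experiment 1, 0 members were called under every alternative run, while calls over all genes were 15 higher and 16 lower with DESeq2, 1 and 1 with no filter, and 477 and 615 without depleted replicate 1, against 0 and 0. Depleted against untreated in experiment 2 gave 1 member higher with DESeq2 (Grap2) and 1 lower with the replicate block (Gzma), and 0 to 1 higher and 0 to 2 lower without 1 library. Depleted against toxin control gave 3 members lower with edgeR, 3 with quantile normalization, 2 with no filter and 0 to 14 without 1 library. The toxin control against untreated gave 8 higher with edgeR, 8 with no filter, 9 with a mean of at least 50, 2 to 29 without 1 library and 32 without depleted 4 and untreated 8 together, a choice made after seeing the data. In culture, 2 were higher with DESeq2, 2 with no filter, 2 with the replicate block, 3 scaled to Cd79a and 0 to 2 without 1 library, and 1 (Cd2) was lower with DESeq2, no filter or the block and 0 to 1 without 1 library. The cause was not tested.

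The log2 ratio of summed members per 1000 Cd79a changed with the genes summed. It was -0.13 for depleted against untreated in experiment 1, and -0.00694 without Cd2 and Lef1 and -0.38 without Cd2, Grap2, Lck, Lef1 and Sh2d2a (5 genes chosen after seeing the data). Without these 5 it was -0.15 in experiment 2, against 0.08 with them, and 0.37 without them and untreated 8. Depleted against toxin control gave -0.29, and -0.65 without Cd2 and Lef1 and -1.30 without the 5. Toxin control against untreated gave 0.37, and 0.80 and 1.14, and 1.67 without the 5 and untreated 8. Culture gave 0.21, and 0.52 and 0.40, and 0.00637 with 4 B cell genes as the denominator and -0.0424 with none. Cd3e in depleted against untreated of experiment 2, at 0.02, changed sign with edgeR (-0.21), DESeq2 (-0.18) and quantile normalization (-0.0635) and ran from -0.61 to 0.63 without 1 library.

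Same-numbered libraries did not all deviate together (correlations -0.02, -0.04 and 0.05 in experiment 1, -0.07 and -0.11 in experiment 2, and 0.20, -0.04 and 0.23 in culture), so the numbers were not taken to pair samples. The 2 depleted libraries of experiment 2 deviate from their mean by equal and opposite amounts, so their 2 correlations are not independent of each other. In culture the co-cultured libraries 1 and 3 correlated best with their own number and 2 did not, and over all genes the block gave 204 higher and 244 lower, against 136 and 131. The block changed no call of the comparisons it could be fitted to other than those above. Where leaving out 1 depleted library of experiment 2 left 1, that library was assumed to vary like the other groups. Experiment 1 had the fewest members tested, 17, and the part of depth in this was not tested.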
